A study of Mus musculus with 12 samples.

Results

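The Fc gamma receptors and the adaptor chains that carry an immunoreceptor tyrosine-based activation motif (ITAM) were examined in Mϕ sorted from mice recovering from peritonitis. The set held 7 genes, chosen by name: the IgG receptors Fcgr1, Fcgr3, Fcgr4 and Fcgr2b, the adaptor chains Fcer1g and Tyrobp, and Trem2, a receptor that signals through Tyrobp. All 7 were found once each among the 47643 gene identifiers of both expression tables, and all 7 passed the minimum mean for testing in every comparison.

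Female C57BL/6 mice of 8 to 12 weeks received 5 mg/kg zymosan into the peritoneum, and from day 1 a daily injection of either compound III (CIII, 25 mg/kg), which blocks the prostaglandin E2 synthase mPGES-1, or its vehicle (VEH). All mice had been given zymosan, so no uninflamed group enters here. At day 6, 2 subpopulations were sorted from CD45+ CD11b+ lavage cells, F4/80lo Mϕ (low for F4/80 and MerTK, high for MHCII) and F4/80hi Mϕ (high for F4/80 and MerTK), and each was sequenced as 3 VEH and 3 CIII libraries. The libraries are named here by treatment and replicate number (VEH 1 to VEH 3, CIII 1 to CIII 3), and the labels do not say whether the F4/80lo and F4/80hi libraries of one name came from 1 mouse. Fc receptors were blocked on the cells before antibody staining, and the gates did not use any of the 7 genes.

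Fc gamma receptors bind the constant part of IgG and so tie antibody-coated particles to phagocytes. The activating receptors Fcgr1, Fcgr3 and Fcgr4 lack a signalling motif of their own and depend on the common gamma chain, encoded by Fcer1g, whose ITAM recruits the kinase Syk, whereas Fcgr2b carries an inhibitory motif in its own tail and dampens the same signal. Tyrobp (DAP12) is the second ITAM adaptor of myeloid cells, and Trem2, a receptor for lipids and cell debris, is among the receptors that need it.

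Of the 7 genes, 4 lie within 275.7 kb of chromosome 1 (GRCm38, GENCODE M21). These are Fcgr2b (170958617 to 170976547, minus strand), Fcgr4 (171018920 to 171029761, plus strand), Fcgr3 (171051174 to 171064935, minus strand) and Fcer1g (171229572 to 171234365, minus strand). Fcgr1 lies on chromosome 3 (96282909 to 96293969, minus strand), Tyrobp on chromosome 7 (30413760 to 30417585, plus strand) and Trem2 on chromosome 17 (48346401 to 48354147, plus strand). The antisense gene Gm38204 overlaps an exon of Fcgr2b and had 0 reads in the 12 libraries. Because the reads come from transcript 3′ ends, shared sequence was looked for there: of the distinct 50-base stretches in the last 600 bases of the Fcgr2b coding transcripts, 5.1% also occur in Fcgr3 transcripts, so a small part of the Fcgr2b reads may be uncertain. The other 6 genes shared none with any other gene.

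The windows of 150 bases before the transcription start are shown for 3 genes on which the results turn, namely Fcgr1 and Fcgr4, whose levels varied most between libraries and were high in the same ones, and Fcgr3, the gene that differed most steadily between the subpopulations. RefSeq (GRCm38.p6) gave promoter entries for 6 of the 7 genes and 7 start sites in all, since Fcgr3 has a pair of starts close together (the upstream one is shown). Capitals mark matches to GAGGAA (the core bound by the myeloid factor PU.1, on either strand, so also TTCCTC), to TTCNNNGAA (the STAT site, which reads the same on both strands) or to the core of the interferon-stimulated response element (GAAA, any 2 bases, GAAA, on either strand). No marked matches overlap in these windows.
Fcgr1, chr3:96293970-96294119, minus strand: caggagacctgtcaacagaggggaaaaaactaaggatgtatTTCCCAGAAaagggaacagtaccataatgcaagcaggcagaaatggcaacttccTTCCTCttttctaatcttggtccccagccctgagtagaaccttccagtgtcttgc
Fcgr4, chr1:171018776-171018925, plus strand: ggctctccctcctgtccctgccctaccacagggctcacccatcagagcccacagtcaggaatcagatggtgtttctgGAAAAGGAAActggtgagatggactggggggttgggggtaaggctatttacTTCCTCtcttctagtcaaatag
Fcgr3, chr1:171059404-171059553, minus strand: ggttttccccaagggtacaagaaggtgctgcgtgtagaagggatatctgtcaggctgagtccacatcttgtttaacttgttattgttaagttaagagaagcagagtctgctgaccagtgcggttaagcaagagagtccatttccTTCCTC

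All 3 windows hold a GAGGAA match, which starts 55 bases before the start site in Fcgr1, 22 in Fcgr4 and 6 in Fcgr3. That of Trem2 holds one as well, 40 bases before the start. Among 32851 promoter windows of the same length, 14.47% hold GAGGAA. Fcgr1 also has TTCNNNGAA, found in 4.09% of windows, and Fcgr4 has the interferon-stimulated response element core, found in 1.59%. None of the 3 motifs is in the windows of Fcgr2b and Fcer1g. These are matches of letters, and binding was not measured.

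Depth ran from 426624 to 3389448 reads per library, so that 3 reads, the limit that a count of 0 allows, were worth 0.885 to 7.03 RPM (recovered reads over the total of the library, scaled to a common depth). Some libraries stood apart before any comparison was made. In the 4 libraries with replicate number 3, the transcript Gm42418 took 2.65 to 14.3% of reads, against at most 0.579% elsewhere. The F4/80hi libraries VEH 3 and CIII 3 went against their label in resident markers: 9 markers of resident large peritoneal Mϕ summed to 231 and 341 RPM there, against 2211 to 3501 in the other 4 F4/80hi libraries, and Ccr2, the chemokine receptor of recruited monocytes, stood at 1398 and 739.5 against 19.7 to 299.8. The sum of the 8 listed monocyte markers, Ccr2 among them, went the other way, at 5208 and 12662 RPM against 16610 to 25797. Its largest part was Fn1, at 2227 and 11489 against 16254 to 24441. All-macrophage markers summed to at least 10373 in every library. Dendritic cell markers summed to 5.8 to 238 RPM in F4/80lo and to 1.3 to 21.1 in F4/80hi, B cell markers to 23.9 to 189.4 and to 0 to 71.2, and T and NK cell markers to 11.6 to 53.2 and to 1.41 to 92.1, while neutrophil markers reached at most 146.5, and Camp and Ngp were at 0 reads in all libraries. Eosinophil and mast cell markers summed to at most 15.5 and mesothelial markers to at most 1.11. Differences with replicate numbers 1 and 2 alone are therefore given beside the CIII and level differences of the 7 genes (that fit was not run for the difference of responses).

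Whether inhibition of mPGES-1 altered these transcripts was asked first, within each subpopulation. No member was called in either, at an adjusted p below 0.05 in limma. This holds against a background of 0% of 10718 genes called in F4/80lo Mϕ and 0% of 10499 in F4/80hi Mϕ, where 289 and 413 genes had an unadjusted p below 0.05 (edgeR called 0 and 0, DESeq2 2 and 0). Values are normalized counts as deposited, and differences are of log2(normalized count + 1), CIII minus VEH. In each subpopulation, the VEH and CIII values of all 7 genes overlapped, against 8.73% (F4/80lo) and 10.5% (F4/80hi) of all genes tested whose treatments did not. Two-sided exact permutation p-values for the 7 genes ran from 0.2 to 0.9, and 3 libraries against 3 cannot give less than 0.1. Nothing in the labels says that the replicates came from separate mice, so the p-values measure the spread between these libraries. In bulk samples such as these, fewer cells of a type and less RNA per cell cannot be told apart.

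Among the activating receptors, Fcgr4, a receptor for IgG2 subclasses, had the largest difference with CIII. In F4/80lo Mϕ it stood at 73.3, 53.9 and 334 normalized counts in VEH 1, 2 and 3 and at 294, 101 and 349 in CIII 1, 2 and 3. In F4/80hi Mϕ the values were 77.1, 52.3 and 341 in VEH and 193, 80.5 and 325 in CIII. VEH 3 reached the level of the highest CIII libraries in both subpopulations, and the groups overlapped through it. In F4/80lo Mϕ, Fcgr4 was higher with CIII by 0.98 ± 0.66 (SE; 95% interval -0.47 to 2.43; limma adjusted p = 1.00, unadjusted 0.165), and in F4/80hi Mϕ by 0.62 ± 0.72 (interval -1.01 to 2.25; adjusted p = 0.992).

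Within replicate numbers 1, 2 and 3, Fcgr4 differed by 1.99, 0.89 and 0.06 in F4/80lo Mϕ and by 1.32, 0.61 and -0.07 in F4/80hi Mϕ. The difference thus lay in the numbers 1 and 2. Without VEH 2 it was 0.47 in F4/80lo Mϕ and 0.083 for F4/80hi, with limma adjusted p-values of 0.999 and 0.996. Without VEH 3 it was 1.78 in F4/80lo Mϕ (limma unadjusted p = 0.00226, adjusted p = 0.504) and 1.42 in F4/80hi Mϕ (unadjusted p = 0.0227, adjusted p = 0.462), and with numbers 1 and 2 alone it was 1.44 and 0.97. The fits without VEH 3 keep number 3 among the CIII libraries only, so that number and treatment are mixed. In them, 687 of 10629 genes in F4/80lo and 1038 of 10471 in F4/80hi had a limma unadjusted p below 0.05. VEH 3 carried few resident markers and much Gm42418, as given above, and the part of these in the Fcgr4 level was not tested.

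Fcgr1, the high-affinity IgG receptor, varied as widely and showed no common direction. Its normalized counts were 58.2, 77.0 and 189.5 in VEH and 171, 20.6 and 94.0 in CIII in F4/80lo Mϕ, and 27.9, 31.4 and 206 in VEH and 83.7, 28.8 and 53.6 in CIII in F4/80hi Mϕ. VEH 3 was the highest and CIII 1 the next in both subpopulations, and the treatments overlapped across nearly their whole range. The lowest value rests on 9 reads (exact Poisson 95% interval 9.4 to 39 normalized counts, counting error only). CIII minus VEH was -0.44 ± 0.69 in F4/80lo Mϕ (interval -1.96 to 1.08) and -0.16 ± 0.75 in F4/80hi Mϕ (interval -1.84 to 1.52), with limma adjusted p-values of 1.00 and 0.999. Both signs turned without VEH 3 (0.055 and 0.76), and both also turned without CIII 2 (0.42 in F4/80lo Mϕ). With numbers 1 and 2 alone, the differences were -0.16 for F4/80lo and 0.72 for F4/80hi.

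Fcgr3, the low-affinity activating receptor, was steadier. In F4/80lo Mϕ it stood at 612, 547 and 497 in VEH and 832, 816 and 522 in CIII, and in F4/80hi Mϕ at 1124, 1048 and 631 in VEH and 919.7, 979 and 715 in CIII. CIII 1 and CIII 2 lay above all VEH libraries in F4/80lo Mϕ, while CIII 3 did not. The differences were 0.36 ± 0.35 (interval -0.40 to 1.13; limma adjusted p = 1.00) and -0.07 ± 0.38 (interval -0.92 to 0.79; limma adjusted p = 0.999). With numbers 1 and 2 alone they were 0.51 and -0.19. With 1 library left out, the F4/80lo value ran from 0.25 (CIII 1) to 0.58 (CIII 3). Number 3 was the lowest of each treatment for Fcgr3 in both subpopulations, the reverse of what it was for Fcgr4.

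The inhibitory receptor Fcgr2b gave 563, 426 and 625 normalized counts in VEH and 628, 733 and 469.8 in CIII in F4/80lo Mϕ. In F4/80hi Mϕ it gave 512, 357 and 352 in VEH and 659.8, 596 and 263 in CIII. The CIII libraries with numbers 1 and 2 were above their VEH counterparts and that with number 3 was below, in both subpopulations. The differences of 0.18 ± 0.35 (interval -0.59 to 0.94) and 0.23 ± 0.42 (interval -0.73 to 1.18) were smaller than the spread, with limma adjusted p-values of 1.00 and 0.993. With numbers 1 and 2 alone they were 0.47 and 0.55. With 1 library left out, they ran from 0.017 (VEH 2) to 0.35 (CIII 3) in F4/80lo and from -0.016 (CIII 1) to 0.65 (CIII 3) in F4/80hi.

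Fcer1g, the common gamma chain, ranged from 607 to 800.4 normalized counts over the 6 F4/80lo libraries, with a VEH mean of 697 ± 78.2 and a CIII mean of 744 ± 57.5 (SD, n = 3). Among F4/80hi libraries it stood at 917, 568 and 1034 in VEH and at 621, 449 and 539 in CIII. VEH 2 lay below CIII 1, and the other VEH libraries lay above all CIII libraries. The differences were 0.10 ± 0.33 (interval -0.63 to 0.83) in F4/80lo Mϕ and -0.61 ± 0.37 (interval -1.44 to 0.22) in F4/80hi, with limma adjusted p-values of 1.00 and 0.992.

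Tyrobp gave 1139, 684 and 608 in VEH and 698, 797 and 457 in CIII in F4/80lo Mϕ. Among F4/80hi libraries it gave 1775, 564 and 769 in VEH and 579, 525 and 329.9 in CIII. VEH 1 was far above the others in F4/80hi Mϕ and highest in F4/80lo Mϕ too. The difference was -0.30 ± 0.39 in F4/80lo (interval -1.16 to 0.56; limma adjusted p = 1.00) and -0.98 ± 0.48 in F4/80hi Mϕ (interval -2.06 to 0.10; limma unadjusted p = 0.0709, adjusted p = 0.992). Without VEH 1 these were -0.026 and -0.50. Within replicate numbers 1, 2 and 3 of F4/80hi Mϕ, Fcer1g differed by -0.56, -0.34 and -0.94, and Tyrobp by -1.61, -0.10 and -1.22. The labels do not say that same-numbered VEH and CIII libraries belong together. The share of all genes with 1 direction in all 3 numbers was not counted. With numbers 1 and 2 alone, Fcer1g differed by -0.055 in F4/80lo and -0.45 in F4/80hi, and Tyrobp by -0.24 and -0.86. The share of reads from ribosomal protein genes was also lower with CIII in F4/80hi Mϕ, without overlap. It was 3.92, 2.25 and 2.06% in VEH 1, 2 and 3 and 1.66, 1.3 and 0.95% in CIII. It did not follow the adaptors library by library, as VEH 3 had the lowest share and the highest Fcer1g of the F4/80hi VEH libraries. The part of this share in the adaptor levels was not tested.

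Trem2 had no common direction. It stood at 106, 52.6 and 38.3 normalized counts in VEH and 23.4, 82.2 and 92.9 in CIII in F4/80lo Mϕ, and at 132, 57.5 and 38.8 in VEH and 48.4, 111 and 152 in CIII in F4/80hi Mϕ. Number 1 was high in VEH and low in CIII, and number 3 the opposite. CIII minus VEH came to -0.08 ± 0.57 (interval -1.33 to 1.17) in F4/80lo Mϕ and 0.48 ± 0.56 (interval -0.77 to 1.73) in F4/80hi, with limma adjusted p-values of 1.00 and 0.992. With numbers 1 and 2 alone these were -0.75 and -0.25. The F4/80hi value was 0.97 without VEH 1 and became smaller without CIII 3.

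**Figure D1:**
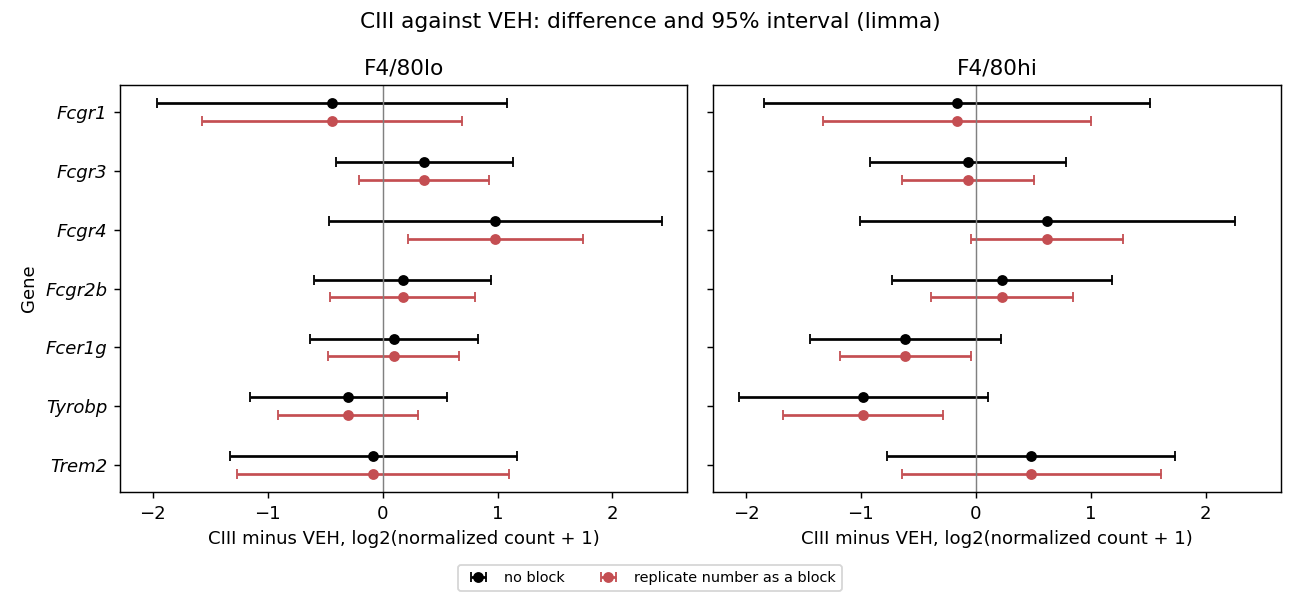
CIII minus VEH on the log2(normalized count + 1) scale for each gene (points) with the 95% interval (bars), in F4/80lo (left) and F4/80hi Mϕ (right). Black is the fit without a block and red the fit with replicate number as a block. All black intervals include 0, and the red ones exclude it for Fcgr4 in F4/80lo Mϕ and for Fcer1g and Tyrobp in F4/80hi, none of which passed the adjusted threshold.

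With replicate number as a block, 1 of the 7 genes in F4/80lo (Fcgr4) and 2 in F4/80hi (Fcer1g and Tyrobp) had an unadjusted p below 0.05 in limma, beside 6.89% and 11.3% of all genes. With array weights, which give less weight to libraries that stray from their group, these were Fcgr4 and Trem2 in F4/80lo and Tyrobp in F4/80hi, beside 11.5% and 7.83% of all genes. In that fit Fcgr4 was 1.75 (limma adjusted p = 0.192) and Trem2 -1.27 (limma adjusted p = 0.340) in F4/80lo, and Tyrobp was -1.06 (limma adjusted p = 0.624) in F4/80hi.

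The difference between the responses of both subpopulations was tested directly, in 10097 genes, of which 0% were called (173 at an unadjusted p below 0.05, edgeR also 0 called). No member was called. The largest differences of responses, F4/80lo minus F4/80hi, were 0.71 ± 0.44 for Fcer1g (interval -0.24 to 1.65) and 0.68 ± 0.63 for Tyrobp (interval -0.66 to 2.02), both with a limma adjusted p of 0.999. That of Tyrobp was 0.20 without F4/80hi VEH 1 and 1.03 without F4/80hi VEH 2. For the other 5 genes they ran from -0.56 (Trem2) to 0.43 (Fcgr3).

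The spread between replicates itself separated the genes. The SD within groups of the log2 values was 1.26 for Fcgr1 and 1.20 for Fcgr4 in F4/80lo Mϕ, and 1.25 and 1.23 in F4/80hi Mϕ, where the medians over all genes tested were 0.68 and 0.66. That of Fcer1g was 0.14 and 0.36, of Fcgr3 0.29 and 0.36, and of Fcgr2b 0.31 and 0.56. Tyrobp (0.45 and 0.68) and Trem2 (0.92 and 0.86) lay between. Fcgr1 and Fcgr4 were high in the same libraries: VEH 3, CIII 1 and CIII 3 held the 3 highest values of each gene in both subpopulations. The libraries low in resident markers (151.5 to 341 RPM) were F4/80lo VEH 3, CIII 1 and CIII 3 and F4/80hi VEH 3 and CIII 3. Fcgr4 stood at 302 to 361 RPM in these 5 and at 54.3 to 209.8 in the other 7, and Fcgr1 at 59.0 to 219 and at 19.95 to 90.8. This cut was not set in advance, and the 5 include every library with number 3. F4/80lo VEH 2, next above the cut with resident markers at 447 RPM, had Fcgr4 at 54.3. How many other genes part at this cut was not counted. The part of these markers in the Fcgr1 and Fcgr4 levels was not tested.

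**Figure D2:**
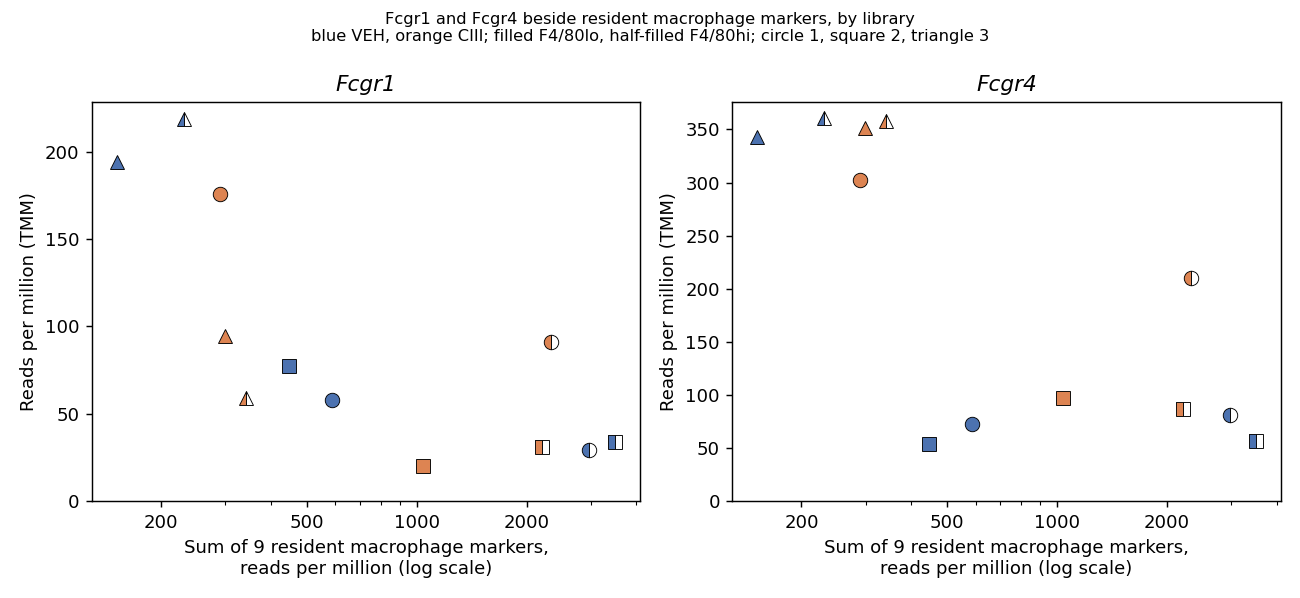
Fcgr1 (left) and Fcgr4 (right) in RPM (linear axis from 0) against the sum of 9 resident macrophage markers in the same library (log axis), 1 point per library. Colour gives the treatment, filling the subpopulation and symbol the replicate number. Fcgr4 is at 302 RPM or above in all 5 libraries with the fewest resident marker reads, a cut not set in advance.

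Genes most alike in pattern over the 12 libraries were looked for among 8442 others with a mean of at least 10 RPM. By Pearson r on the log2 scale of RPM with 1 added, Fcgr4 was most like Igtp (0.962), Irf1 (0.956) and Cul1 (0.955), and Fcgr1 most like Plac8 (0.939), Psmb8 (0.912) and Psme1 (0.910). Fcgr3 was most like Abi1 (0.922), Glce (0.921) and Smpdl3a (0.918), and Fcgr2b most like Unc93b1 (0.850), Map3k11 (0.827) and BC005624 (0.827). Fcer1g was most like Rps21 (0.918), Rplp0 (0.909) and Romo1 (0.890), Tyrobp most like Tmem258 (0.948), Ndufa3 (0.942) and Ftl1 (0.939), and Trem2 most like Plekhb2 (0.862), Tmem186 (0.833) and Ifi27 (0.809). None of the 7 genes was among the nearest 3 of another. These values describe the 12 libraries, which share subpopulation, replicate number and depth, and carry no test.

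The second question was whether F4/80lo and F4/80hi Mϕ differ in these receptors. The deposited tables were normalized separately, so levels are in RPM of the recovered reads, scaled together by TMM. Adgre1, which encodes F4/80, checks the sort: it averaged 262 ± 59.1 in F4/80lo Mϕ and 912 ± 398 in F4/80hi (SD, n = 6). F4/80hi VEH 3 and CIII 3 stood at only 427 and 386, close to the highest F4/80lo library at 361, and the others at 1082 to 1300.1. Mertk, the other gate marker, overlapped throughout, at 177 to 426 in F4/80lo libraries and 184 to 416 in F4/80hi libraries. Without pairing, limma called 0.0186% of 10736 genes (2 genes, edgeR also 2, with 9.37% at an unadjusted p below 0.05), and no member. When libraries of the same name were taken as pairs, it called 560 genes, or 5.22% (299 higher and 261 lower in F4/80lo Mϕ), and 1 of the 7 members.

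That member was Fcgr3. Over the 6 libraries of a subpopulation, its lowest, median and highest level was 509, 578 and 855 RPM in F4/80lo Mϕ and 668, 1027 and 1186 in F4/80hi. It was lower in F4/80lo Mϕ in all 6 pairs, by 0.97, 1.03 and 0.39 on the log2 scale in VEH 1, 2 and 3 and by 0.22, 0.42 and 0.58 in CIII 1, 2 and 3, although the subpopulations overlapped as a whole. Of all genes tested, 4.88% were lower in F4/80lo Mϕ in all 6 pairs. The mean difference was -0.60, with an SE of 0.24 without pairs (limma unadjusted p = 0.0229, adjusted p = 0.435) and of 0.16 with pairs (adjusted p = 0.0344, where 2.43% of genes were called lower).

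This call was not stable. With replicate number alone as the block, Fcgr3 was not called (limma adjusted p = 0.062). With pairs by name, the limma adjusted p was 0.0548 when reads were scaled by library totals, and it passed 0.05 when any of 5 pairs was left out (0.0616 to 0.135). Without the pair VEH 3 it was 0.0102, and with the pairs of numbers 1 and 2 alone 0.00505. The direction was the same in every alternative that was run, from -0.82 in VEH libraries alone to -0.43 in CIII libraries alone. The fits with pairs that used library totals, left out a pair or kept numbers 1 and 2 were chosen after the data had been seen. Of the 7 all-macrophage markers, which include F4/80 and MerTK of the sort, 5 were lower and 2 higher in F4/80lo Mϕ (3 and 1 called with pairs), Cd68 being lower by 0.82 and Itgam by 1.26 on the log2 scale. Their part in the Fcgr3 difference was not tested.

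**Figure D3:**
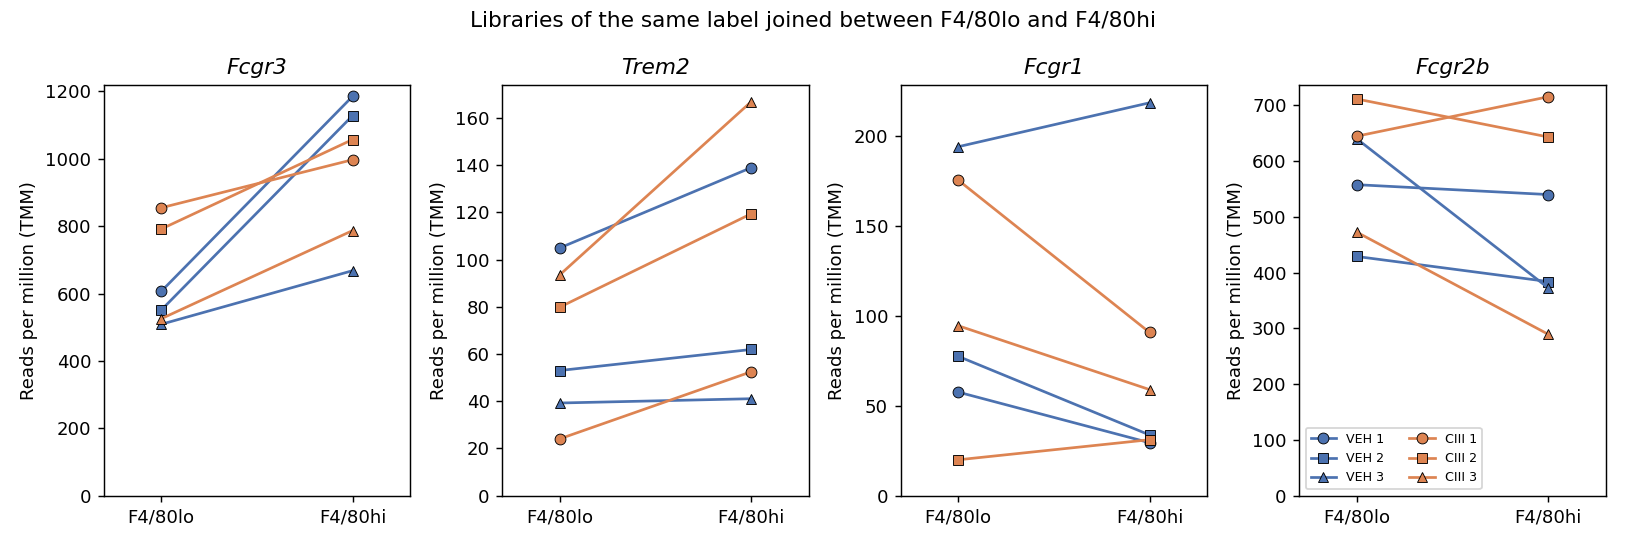
Level (RPM, TMM scaled, linear axis from 0) in F4/80lo and F4/80hi Mϕ, with a line joining the libraries of the same treatment and replicate number, for Fcgr3, Trem2, Fcgr1 and Fcgr2b. Blue lines are VEH and orange lines CIII. All 6 lines go up for Fcgr3 and for Trem2, and they go both ways for Fcgr1 and Fcgr2b.

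Trem2 was the other member lower in F4/80lo Mϕ in all 6 pairs, by 0.06 to 1.09 on the log2 scale. Its lowest, median and highest level was 24.0, 66.4 and 105 RPM in F4/80lo Mϕ and 41.1, 90.6 and 167 in F4/80hi, so that the subpopulations overlapped over most of their range. The mean difference of -0.53 was not called, with a limma adjusted p of 0.751 without pairs and 0.122 with pairs (interval -0.94 to -0.13 with pairs). It was -0.24 without F4/80lo CIII 1, -0.25 in VEH and -0.86 in CIII libraries alone, and -0.59 with numbers 1 and 2.

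Fcgr1 and Fcgr2b stood somewhat higher in F4/80lo Mϕ, and neither was called. Fcgr1 ran from 19.95 through a median of 86.1 to 194 RPM in F4/80lo Mϕ and from 29.5 through 46.4 to 219 in F4/80hi. It was higher in F4/80lo Mϕ in 4 of 6 pairs, with a mean difference of 0.49 (interval -0.77 to 1.75; limma adjusted p = 0.843, with pairs 0.262). That value was 0.15 without F4/80lo CIII 1, 0.92 without F4/80hi VEH 3, and 0.60 with numbers 1 and 2. Fcgr2b ran from 429 through 599 to 712 in F4/80lo Mϕ and from 289.7 through 462 to 716 in F4/80hi, was higher in F4/80lo Mϕ in 5 of 6 pairs and differed by 0.28 (interval -0.28 to 0.85; limma adjusted p = 0.782, with pairs 0.362). The Fcgr2b difference lay in number 3, with 0.78 in the pair VEH 3 and 0.71 in CIII 3, against -0.15 to 0.16 in the other 4 pairs, and it was 0.035 with numbers 1 and 2 alone.

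Fcgr4, Fcer1g and Tyrobp had mean differences close to 0 over both treatments. They were 0.06 for Fcgr4 (interval with pairs -0.28 to 0.40), 0.03 for Fcer1g (-0.33 to 0.38) and 0.01 for Tyrobp (-0.33 to 0.35), on the log2 scale. These means pool differences of opposite sign, -0.12, -0.33 and -0.34 in VEH libraries and 0.20, 0.34 and 0.30 in CIII libraries. Numbers 1 and 2 alone gave 0.10, 0.12 and 0.0066. Fcgr4 ran from 54.3 through a median of 199.97 to 352 RPM in F4/80lo Mϕ and from 56.3 through 148 to 361 in F4/80hi. Fcer1g was more even in F4/80lo Mϕ (622, 742 and 806) than in F4/80hi Mϕ (485, 643 and 1095), and so was Tyrobp (459.6, 703 and 1129 against 363, 618 and 1873).

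In order of group means, Fcgr3 fell into F4/80hi VEH (994 ± 284 RPM), F4/80hi CIII (947 ± 142), F4/80lo CIII (724 ± 175) and F4/80lo VEH (555 ± 49, SD, n = 3). Trem2 ran from F4/80hi CIII (113 ± 57.5) to F4/80lo VEH (65.7 ± 34.6), and Fcgr4 from F4/80lo CIII (251 ± 135) to F4/80lo VEH (156 ± 161). Fcgr1 ran from F4/80lo VEH (109.8 ± 73.7) to F4/80hi CIII (60.3 ± 29.9), and Fcgr2b from F4/80lo CIII (609.8 ± 123) to F4/80hi VEH (432 ± 93.5). Both adaptors were highest in F4/80hi VEH (Fcer1g 892 ± 250.5, Tyrobp 1098 ± 679) and lowest in F4/80hi CIII (584 ± 94.4 and 519 ± 139). Neighbours in these orders differed by less than the SD of at least 1 of them, except F4/80hi CIII and F4/80lo CIII for Fcgr3, F4/80lo VEH (543 ± 106) and F4/80hi VEH for Fcgr2b, and F4/80lo VEH (702 ± 69.8) and F4/80hi CIII for Fcer1g. The limma fits in CIII or VEH libraries alone, which cover the Fcgr3 and Fcgr2b differences, called 0 members. That of Fcer1g was not tested.

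The balance of activating to inhibitory receptor reads was taken within each library, where no scaling enters. Reads of Fcgr1, Fcgr3 and Fcgr4 together numbered 1.32, 1.59 and 1.63 per Fcgr2b read in F4/80lo VEH 1, 2 and 3, and 2.07, 1.28 and 2.05 in CIII. In F4/80hi Mϕ there were 2.40, 3.17 and 3.35 in VEH and 1.81, 1.83 and 4.16 in CIII. The ratio was higher in F4/80hi Mϕ in 5 of 6 pairs, the exception being CIII 1. For Fcgr3 alone, the ratio to Fcgr2b was 0.794 to 1.33 in the 6 F4/80lo libraries and 1.39 to 2.94 in the 6 F4/80hi libraries. The levels of Fcgr3 and of Fcgr2b each overlapped between the subpopulations, and how often other ratios part as fully was not counted. The nearest values, 1.33 and 1.39 in the CIII 1 libraries of both, differed by 0.07 on the log2 scale, where their counting SEs were 0.0642 and 0.0625, so that a difference between those libraries was not detectable at this depth. In F4/80hi Mϕ number 3, Fcgr4 added much to the balance, with 0.967 and 1.24 reads per Fcgr2b read against 0.135 to 0.293 in numbers 1 and 2. Read numbers of different genes also depend on transcript features, so the ratios compare libraries and not receptors, and they carry no test.

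**Figure D4:**
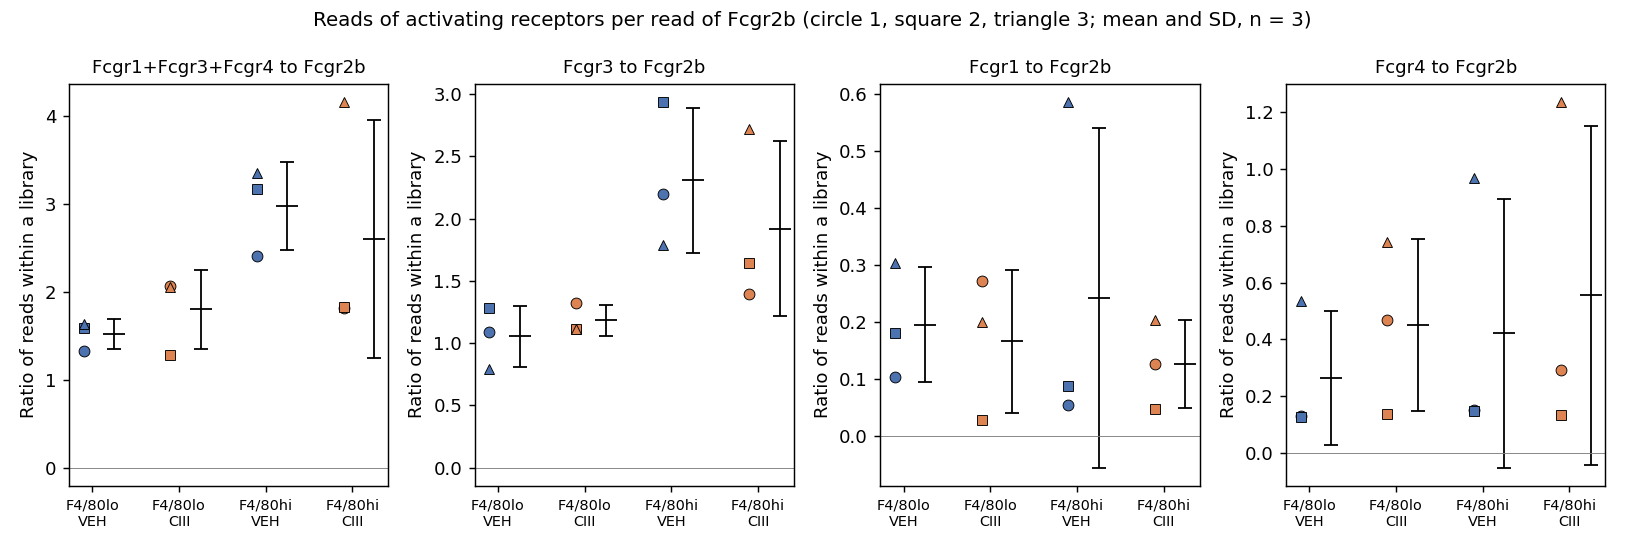
Reads of the activating receptors per read of Fcgr2b in each library, together and for Fcgr3, Fcgr1 and Fcgr4 singly, by group, with the mean and SD of 3 libraries. The ratio of Fcgr3 to Fcgr2b is at most 1.33 in F4/80lo Mϕ and at least 1.39 in F4/80hi, both in CIII 1 and not told apart at this depth. The high Fcgr4 ratios in F4/80hi Mϕ are those of number 3.

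Genes that act beside these receptors were examined as 4 lists. Of 25 genes of Fc receptor signalling, all were tested, and none was called in limma without pairs or weights. Their median CIII minus VEH was 0.13 in F4/80lo Mϕ (17 higher, 8 lower), where the median over all genes was -0.05, and 0.30 in F4/80hi Mϕ (17 higher, 8 lower) beside 0.05 for all genes. Plcg2, a phospholipase that acts below Syk, stood at 129, 237 and 113 normalized counts in VEH and 311, 313 and 334 in CIII in F4/80lo Mϕ, without overlap, a difference of 1.07 ± 0.36 (limma unadjusted p = 0.0128, adjusted p = 1.00). Card9, an adaptor that links Syk to NF-kappaB, stood at 98.9, 86.0 and 76.6 in VEH and 16.3, 41.1 and 15.5 in CIII, also without overlap, a difference of -1.94 ± 0.46 (limma unadjusted p = 0.00138, adjusted p = 1.00, and 0.028 with array weights). At this unadjusted level, 2 of the 25 genes in F4/80lo Mϕ and 0 in F4/80hi stand beside 2.7% and 3.93% of all genes. Plcg2 did not overlap in F4/80hi Mϕ either, at 126 ± 34.5 in VEH and 179 ± 18.0 in CIII (SD, n = 3).

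Of 12 other Fc receptors, 3 were tested in F4/80lo Mϕ and 2 in F4/80hi. Fcgrt, the neonatal Fc receptor, which carries IgG and albumin away from degradation, stood at 81.5, 116 and 102 normalized counts in VEH and 219.9, 224 and 200.1 in CIII in F4/80lo Mϕ. Among F4/80hi libraries it stood at 157, 66.6 and 112 in VEH and 286, 186 and 217 in CIII. All CIII libraries lay above all VEH libraries in both subpopulations, as they did for Plcg2. Of all genes tested, 8.73% (F4/80lo) and 10.5% (F4/80hi) had treatments that did not overlap, and the share in both subpopulations was not counted. The differences were 1.11 ± 0.32 and 1.09 ± 0.39 (limma unadjusted p = 0.00536 and 0.0206), and neither passed adjustment (adjusted p = 1.00 and 0.992, with the replicate block 0.572 and 0.168). With numbers 1 and 2 alone, they were 1.19 and 1.17. In the same fit Fcrls was lower with CIII in F4/80lo Mϕ (-3.76, limma adjusted p = 0.00185), and it was not called with all libraries (-2.28, limma adjusted p = 1.00).

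Of 23 receptors that couple to ITAM adaptors, with the adaptor Hcst, 19 were tested in F4/80lo Mϕ and 17 in F4/80hi, and none was called for CIII. The median difference was 0.14 in F4/80lo (12 higher, 7 lower) and -0.08 in F4/80hi Mϕ (7 higher, 10 lower). In F4/80lo Mϕ, Sirpb1c averaged 25.5 ± 6.35 in VEH and 62.1 ± 15.1 in CIII, and Lilra6 72.4 ± 4.90 and 33.4 ± 7.53. In F4/80hi Mϕ, Clec5a, a lectin-like receptor of Tyrobp, averaged 28.3 ± 5.10 and 11.7 ± 3.16 (SD, n = 3). Of 15 inhibitory receptors, 13 and 12 were tested, none was called for CIII, and the medians were 0.05 and 0.51. Clec4a2, an inhibitory lectin, averaged 68.1 ± 10.8 in VEH and 28.3 ± 8.03 in CIII in F4/80hi Mϕ. These 4 genes had unadjusted p-values below 0.05 in limma and adjusted p-values of 0.992 or above. Reads of Sirpb1c and its near copies, and of Lilra6, may be shared within their gene families.

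Between the subpopulations, the fit with pairs called 1 of 25 genes of Fc receptor signalling, 1 of 3 other Fc receptors, 2 of 19 coupled receptors and 4 of 12 inhibitory receptors, beside 5.22% of all genes. Prkcd, a protein kinase C, was higher in F4/80lo Mϕ (996 ± 447 against 658 ± 240.3 RPM, SD, n = 6), as was Fcrls (54.1 ± 86.5 against 3.04 ± 3.71), which rested on F4/80lo VEH 1 and VEH 2 at 84.1 and 218 while the other 4 F4/80lo libraries were at 12.4 or less. Lilra6 was higher (53.3 ± 22.6 against 20.8 ± 18.8) and Clec4d, a lectin that couples to the Fcer1g chain, was lower (83.6 ± 49.1 against 166 ± 84.1). Of the inhibitory receptors, Clec12a (235 ± 148 against 153 ± 172), Clec4a2 (97.4 ± 45.4 against 51.6 ± 24.6) and Pirb (512 ± 187 against 369 ± 161) were higher and Cd33 (89.9 ± 58.2 against 204 ± 124) was lower in F4/80lo Mϕ. Their limma adjusted p-values with pairs ran from 0.00472 to 0.0471. With pairs, 3 of 4 tested dendritic cell markers and 1 of 3 tested B cell markers (Ighm) were also called higher in F4/80lo Mϕ, although the study gated out CD11c+ MHCII+ dendritic cells and CD11b- lymphoid cells. Their part in these differences was not tested. Without pairs none of the 8 was called. By the rule for named genes, Fgr, Sirpb1a, Sirpb1b, Sirpb1c and Cd200r4 had unadjusted p-values below 0.05 without pairs, with differences from -1.04 (Cd200r4) to 1.70 (Sirpb1a).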

How the data were processed

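The authors prepared 3′ mRNA libraries with unique molecular identifiers (QuantSeq), mapped reads to GRCm38 with STAR, collapsed duplicates, counted reads per gene with HTSeq and normalized with DESeq2. Per the labels these are 12 libraries. The deposited signal is the normalized count, a read count divided by the size factor of its library, set separately for F4/80lo and F4/80hi Mϕ. In all 12 libraries, 100% of values were whole multiples of 1 read within 0.02, so reads were recovered.

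CIII and VEH were compared with limma 3.58.1 (R 4.3.3) on log2(normalized count + 1) for genes whose mean reached 3, two-sided, with Benjamini-Hochberg adjustment over all genes tested and a threshold of 0.05. Differences on this scale are understated for weakly expressed genes. Levels between subpopulations were compared on the log2 scale of RPM with 1 added, after TMM scaling (edgeR 4.0.16). DESeq2 1.42.0 and edgeR were alternatives, and scripts were tested on simulated data. The members and lists were chosen with earlier results of these data known. All 7 members were named. Listed genes were named where the unadjusted p was below 0.05, at most 6 per list and comparison, together with those called in the fit with pairs, and, for each member, the 3 genes most like it.

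The pairing of libraries was taken from the replicate numbers only. Deviations from group means correlated between same-numbered VEH and CIII libraries at 0.121 to 0.504 in F4/80lo Mϕ and 0.216 to 0.639 in F4/80hi, and between F4/80lo and F4/80hi libraries of the same name at 0.261 to 0.688. VEH 1 correlated better with CIII 2 than with CIII 1 (0.171 and 0.285 in F4/80lo and F4/80hi), and number 3 correlated negatively with numbers 1 and 2 throughout. Deviations from a mean of 3 libraries cancel within a group. The negative values therefore follow in large part from the positive correlation of number 3 with number 3. That a name marks 1 mouse is not stated. Symbols were found for 47224 of the identifiers. Figures were drawn with matplotlib 3.10.9.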

Additional observations from a re-analysis of the deposited data

How the results depend on the processing

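No member was called for CIII, or for the difference of responses, under any alternative run. Genes called in F4/80lo numbered 2 with DESeq2, 2 with array weights and 12 with replicate numbers 1 and 2 only, instead of 0. Genes called between the subpopulations, 2 without pairs, numbered 278 with replicate number as a replicate block, 560 with libraries of the same name as the replicate block, 582 with that block and library totals, 635 with it in edgeR and 1201 with it in numbers 1 and 2 only, 336 in numbers 1 and 2 without pairs, 10 with a pseudocount of 5, 4 with library totals, and 0 with no minimum or with VEH libraries only. Leaving out a replicate or pair gave 0 to 761 genes, with 137 without F4/80hi VEH 3 and 39 without F4/80lo VEH 3. Members called rose from 0 to 1 (Fcgr3) with the block by name, in limma, in edgeR and in numbers 1 and 2, and were 0 to 1 with a replicate or pair left out. Fcgr3 was then -0.60, -0.60 and -0.68, and -0.76 to -0.50 with one left out. With replicate number as the block Fcgr3 was not called, and neither block changed another member's call.

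Signs turned for members with reported differences from -0.56 to 0.48, none of them called. In F4/80lo these were Fcgr1 (0.86 with array weights), Trem2 (0.0068 with DESeq2) and Fcer1g (-0.055 in numbers 1 and 2). For F4/80hi they were Fcgr1 (0.55 with array weights, 0.72 in numbers 1 and 2), Trem2 (-0.21 and -0.25) and Fcgr3 (0.039 with library totals). The difference of responses for Fcgr1 was 0.48 in edgeR. Between subpopulations, VEH libraries only gave -0.12 for Fcgr4, -0.33 for Fcer1g and -0.34 for Tyrobp, which was -0.011 with DESeq2 size factors and -0.055 in edgeR. With a replicate left out, CIII minus VEH ran from -1.08 to 0.42 for Fcgr1, -0.43 to 0.54 for Trem2 and -0.00023 to 0.15 for Fcer1g in F4/80lo, and from -0.66 to 0.76 for Fcgr1, -0.016 to 0.65 for Fcgr2b and -0.33 to 0.087 for Fcgr3 in F4/80hi. The difference of responses ran from -1.20 to 0.58 (Fcgr1), -0.47 to 0.19 (Fcgr2b), -0.44 to 1.16 (Fcgr4) and -1.05 to 0.057 (Trem2), and the level difference from -0.36 to 0.43 (Fcgr4), -0.14 to 0.13 (Fcer1g) and -0.19 to 0.22 (Tyrobp). The causes were not tested. The fits with pairs by name that use library totals or edgeR, leave out a pair or keep numbers 1 and 2 were chosen after seeing the data. Depth limits Fcgr1 most, with 9 reads in its lowest library.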
